A study of Mus musculus with 4 samples.

Results

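The genes described here are those whose signal differed in the same direction, by at least 2-fold, between each of 3 oncogene-transformed cultures and 1 non-transformed culture of mouse fetal liver progenitor cells. They were chosen from the deposited expression values by that threshold alone. Of 10679 genes measured, 28 were higher and 288 were lower on all 3 transformed arrays. The series holds 4 arrays, and all 4 were used.

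Every culture came from p53-/- mouse fetal liver, so the loss of this tumour suppressor is common to the transformed and the non-transformed cells. The first transformed culture is labelled H-RasV12, a constitutively active H-Ras GTPase. The second is labelled myr-Akt, an AKT kinase that a myristoyl anchor keeps at the cell membrane. The third is labelled c-Myc, a transcription factor that promotes growth. The fourth culture was not transformed and is the only control. The same growth medium is given for all of them, a DMEM and F12 mixture with serum, dexamethasone, nicotinic acid, insulin, transferrin and selenium supplement, and the growth factors EGF and HGF. The labels do not state the vector or promoter behind each oncogene, whether a culture was a clone or a pool, or a passage, a mouse strain or a gestational age. Each label has 1 array, so no spread between cultures was measured and no test was made. The 3 differences given for each gene were all taken from the same non-transformed array, and an error in that array would enter all of them in the same direction.

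H-Ras passes signals from growth factor receptors to the RAF-MEK-ERK cascade and to PI3 kinase, AKT acts downstream of PI3 kinase on growth, survival and glucose use, and MYC acts in the nucleus on genes for ribosome production and nucleotide synthesis. Cells of mesenchymal character, such as hepatic stellate cells, fibroblasts and mesothelial cells, secrete the collagens, proteoglycans and proteases that build and remodel the extracellular matrix, and they can carry contractile proteins of smooth muscle. Interferon-response genes encode antiviral and antibacterial effectors, and STAT and IRF factors switch them on through short promoter elements.

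Markers of the labelled cell type were uneven. Of 7 hepatoblast markers, 7 were above the signal floor (100.001, which is 20% of the trimmed mean signal) in H-RasV12, 2 in myr-Akt, 2 in the array labelled c-Myc and 3 in non-transformed cells. The defining markers Afp, Alb, Ttr and Hnf4a were under the floor in non-transformed cells, and the 3 above it were Apoa1, Dlk1 and Gpc3. Of the 5 biliary and progenitor markers with a probe set, 4, 4 and 3 were above the floor on the H-RasV12, myr-Akt and c-Myc-labelled arrays, and 5 were above it on the non-transformed array. The keratin gene Krt19 had signals of 3786 in H-RasV12, 1493 in myr-Akt and 1804 in the array labelled c-Myc, against 2322 in non-transformed cells. Of 4 mesothelial markers, 3 were above the floor in H-RasV12, and 4 on each of the other arrays. The summed signal over Msln, Upk3b, Wt1 and Lrrn4 was 6005 in H-RasV12, 18536 in myr-Akt and 16987 in the array labelled c-Myc, against 28544 in non-transformed cells. Of 5 macrophage markers, 2 were above the floor in H-RasV12, 2 in myr-Akt, 0 in the array labelled c-Myc and 1 in non-transformed cells. Cd68 had signals of 131 in H-RasV12, 110.2 in myr-Akt and 87.7 in the array labelled c-Myc, against 122 in non-transformed cells, and Csf1r had signals of 145 in H-RasV12, 119 in myr-Akt and 54.1 in the array labelled c-Myc, against 78.4 in non-transformed cells, while Ptprc, Adgre1 and Lyz2 were at the floor on every array. All 4 endothelial markers and both erythroid markers with a probe set were at the floor on every array.

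The Akt1 and Myc probe sets did not follow the labels. The label myr-Akt does not name the AKT isoform, and no Hras signal is given here. Akt1 had signals of 2760.3 in H-RasV12, 2834 in myr-Akt and 2991 in the array labelled c-Myc, against 1870.1 in non-transformed cells, so the myr-Akt array was not the highest. Myc had signals of 1747 in H-RasV12, 639.7 in myr-Akt and 421 in the array labelled c-Myc, against 2285 in non-transformed cells, and the array labelled c-Myc was the lowest of the 4. The labels and annotation do not say whether these probe sets lie within what was transduced. That culture is therefore called the array labelled c-Myc throughout, and H-RasV12 and myr-Akt likewise stand for labels that these signals do not check. The counts without the array labelled c-Myc are given in the closing section. RNA quality differed little by array, with a ratio of the 5′ to the 3′ beta-actin control of 0.907 in H-RasV12, 0.846 in myr-Akt and 0.870 in the array labelled c-Myc, against 0.889 in non-transformed cells. Fewer genes were above the floor on the transformed arrays (9927 in H-RasV12, 9512 in myr-Akt and 9492 in the array labelled c-Myc) than on the non-transformed one (10216).

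Shared differences of at least 2-fold were mostly toward lower signal. The size limit was a log2 difference of at least 1 from the non-transformed array, met in the same direction on each transformed array. By this rule 28 genes were higher, 0.262% of the genes measured, and 288 were lower, or 2.7%. Without a size limit the directions were near balance, with 29.3% of genes above and 30.8% below the non-transformed array on all 3 arrays. The H-RasV12 array had the fewest differences. It had 223 genes at least 2-fold higher (2.09%) and 670 lower (6.27%), myr-Akt had 523 higher (4.9%) and 1353 lower (12.7%), and the array labelled c-Myc had 472 higher (4.42%) and 1211 lower (11.3%). When the H-RasV12 array was left out, 303 genes were higher (2.84%) and 978 lower (9.16%) on the other 2, so the H-RasV12 array limited the shared count.

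The lower genes were often dim after transformation. Of the 288, 132 were above the floor on all 4 arrays, 93 were at the floor on 1 or 2 transformed arrays and 63 were at it on all 3, so the last group has only a bound on its difference. Among the 8965 genes above the floor on every array, 27 were higher (0.301%) and 132 were lower (1.47%). Within these 8965 genes, the transformed arrays spanned a median log2 range of 0.38 for the 27 higher genes, 0.93 for the 132 lower genes and 0.45 for all. The higher differences were moderate in size, with a median smallest difference of 1.10 over the same 27 genes. Of all 28 higher genes, 0 were at 4-fold on all 3 arrays. The 132 lower genes above the floor on all 4 arrays had a median smallest difference of -1.30. Of all 288 lower genes, 42 were at least 4-fold and 9 at least 8-fold lower on all 3 arrays, bounds included.

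The higher genes included enzymes of nucleotide supply, iron uptake, DNA replication and ribosome assembly. Tfrc, which encodes the transferrin receptor that brings iron into dividing cells, had signals of 3824 in H-RasV12, 6649.5 in myr-Akt and 4836 in the array labelled c-Myc, against 1691 in non-transformed cells. All 3 transformed arrays were more than 2-fold above the non-transformed one, with log2 differences of 1.18 in H-RasV12, 1.98 in myr-Akt and 1.52 in the array labelled c-Myc. Umps, the enzyme that completes the pyrimidine nucleotide UMP, had signals of 1474 in H-RasV12, 1832 in myr-Akt and 1904 in the array labelled c-Myc, against 638 in non-transformed cells. Shmt1, a cytosolic serine hydroxymethyltransferase that feeds one-carbon units into thymidylate and purine synthesis, had signals of 608 in H-RasV12, 689 in myr-Akt and 1593 in the array labelled c-Myc, against 263 in non-transformed cells. Its highest signal was in the array labelled c-Myc and the other 2 lay close together. A less bright Shmt1 probe set had log2 differences of 0.69 in H-RasV12, 0.14 in myr-Akt and 1.75 in the array labelled c-Myc. Fen1, the flap endonuclease that trims Okazaki fragments, had signals of 2734 in H-RasV12, 3071 in myr-Akt and 2844 in the array labelled c-Myc, against 1288 in non-transformed cells. Its probe set is of the _x_at kind, which can bind more than 1 transcript. Gins1, a subunit of the GINS complex of the replicative helicase, had signals of 1909.6 in H-RasV12, 2405 in myr-Akt and 2376 in the array labelled c-Myc, against 921 in non-transformed cells. Both replication genes were even across the transformed arrays, with log2 ranges of 0.17 for Fen1 and 0.33 for Gins1.

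Nob1, an endonuclease that matures the small ribosomal subunit RNA, was among the most even of the higher genes, with signals of 1388 in H-RasV12, 1503 in myr-Akt and 1504 in the array labelled c-Myc, against 637 in non-transformed cells. Tcof1, whose product treacle supports ribosomal RNA transcription in the nucleolus, had signals of 780.1 in H-RasV12, 1198 in myr-Akt and 1084 in the array labelled c-Myc, against 371 in non-transformed cells. Lsg1, a GTPase of large subunit assembly, ranged from 834 to 962 on the 3 transformed arrays, against 416 on the non-transformed array. Snhg16, a host transcript of small nucleolar RNAs, had signals of 733 in H-RasV12, 1139.7 in myr-Akt and 1067 in the array labelled c-Myc, against 319.5 in non-transformed cells. The related host Snhg7 ranged from 346 to 446 on the 3 transformed arrays, against 171 on the non-transformed array. In each of these genes the non-transformed array was the lowest of the 4.

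The gene farthest above the non-transformed array on all 3 was Lgals2, which encodes galectin 2, a lectin that binds galactose-containing sugars. It had signals of 567 in H-RasV12, 1713 in myr-Akt and 907 in the array labelled c-Myc, against 162 in non-transformed cells, and its probe set is of the _s_at kind. A less bright Lgals2 probe set had log2 differences of 1.26 in H-RasV12, 0.19 in myr-Akt and 0.24 in the array labelled c-Myc. Mtm1, a phosphoinositide phosphatase of endosomes, had signals of 3192 in H-RasV12, 5005 in myr-Akt and 4738 in the array labelled c-Myc, against 1229 in non-transformed cells. Arhgap28, a GTPase-activating protein, had signals of 794 in H-RasV12, 872 in myr-Akt and 1031 in the array labelled c-Myc, against 288 in non-transformed cells. Hirip3, which binds the histone chaperone HIRA, ranged from 1812 to 2294 on the 3 transformed arrays, against 749 on the non-transformed array. Taf4b, a TFIID subunit best known from germ cells, had signals of 307 in H-RasV12, 484 in myr-Akt and 668 in the array labelled c-Myc, against 142 in non-transformed cells, and Edn2, the vasoconstrictor peptide endothelin 2, had signals of 362 in H-RasV12, 422 in myr-Akt and 738 in the array labelled c-Myc, against 169 in non-transformed cells. Both were highest in the array labelled c-Myc. Rps6ka6, which encodes the ribosomal S6 kinase RSK4, ranged from 525 to 927 on the 3 transformed arrays, against 237 on the non-transformed array. The potassium channel gene Kcnq5 was the most even, with signals of 238 in H-RasV12, 229.9 in myr-Akt and 235 in the array labelled c-Myc, against 104 in non-transformed cells, and its non-transformed signal was just above the floor. Syne4, the nuclear envelope protein nesprin 4, ranged from 246 to 414 on the 3 transformed arrays, against 104 on the non-transformed array, again with a non-transformed signal close to the floor.

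The other 9 higher genes were Cenps, Khsrp, Cep76, Lrr1, Wdhd1, Slc35g1, 5430416N02Rik, Bnc2 and Dcps. Wdhd1 and Lrr1, which act at the replication fork, ranged from 1157 to 1309.5 on the 3 transformed arrays, against 563 on the non-transformed array for Wdhd1, and from 1120.5 to 1248 on the 3 transformed arrays, against 543 on the non-transformed array for Lrr1. Khsrp, an RNA-binding protein of splicing and mRNA decay, ranged from 3885 to 4547 on the 3 transformed arrays, against 1830.2 on the non-transformed array. Cenps, a centromere protein, ranged from 251 to 362 on the 3 transformed arrays, against 117 on the non-transformed array, and Cep76, which limits centriole duplication, from 576 to 1054 on the 3 transformed arrays, against 273 on the non-transformed array. Bnc2, a zinc finger protein of mesenchymal and epithelial cells, had signals of 968 in H-RasV12, 1806 in myr-Akt and 1985 in the array labelled c-Myc, against 479.9 in non-transformed cells. Slc35g1, a solute carrier, had signals of 208 in H-RasV12, 755 in myr-Akt and 688 in the array labelled c-Myc, against 57.8 in non-transformed cells. The last of these is under the floor, so the gene was at least 2.08-fold higher on each transformed array. The threshold split a continuous range. Dcps, an mRNA decapping scavenger, and Lsg1 lay just inside it, with Dcps at 965 in H-RasV12, 1067 in myr-Akt and 1097 in the array labelled c-Myc, against 482 in non-transformed cells. Qtrt1, a tRNA-modifying enzyme, and Mcm10, a replication initiation factor, lay just outside, and Mcm10 had signals of 1025 in H-RasV12, 1279.5 in myr-Akt and 1205 in the array labelled c-Myc, against 519 in non-transformed cells. A less bright probe set above the floor existed for 16 of the 28 genes, and it was higher on all 3 arrays for 12 of them and at least 2-fold higher for 2.

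**Figure D1:**
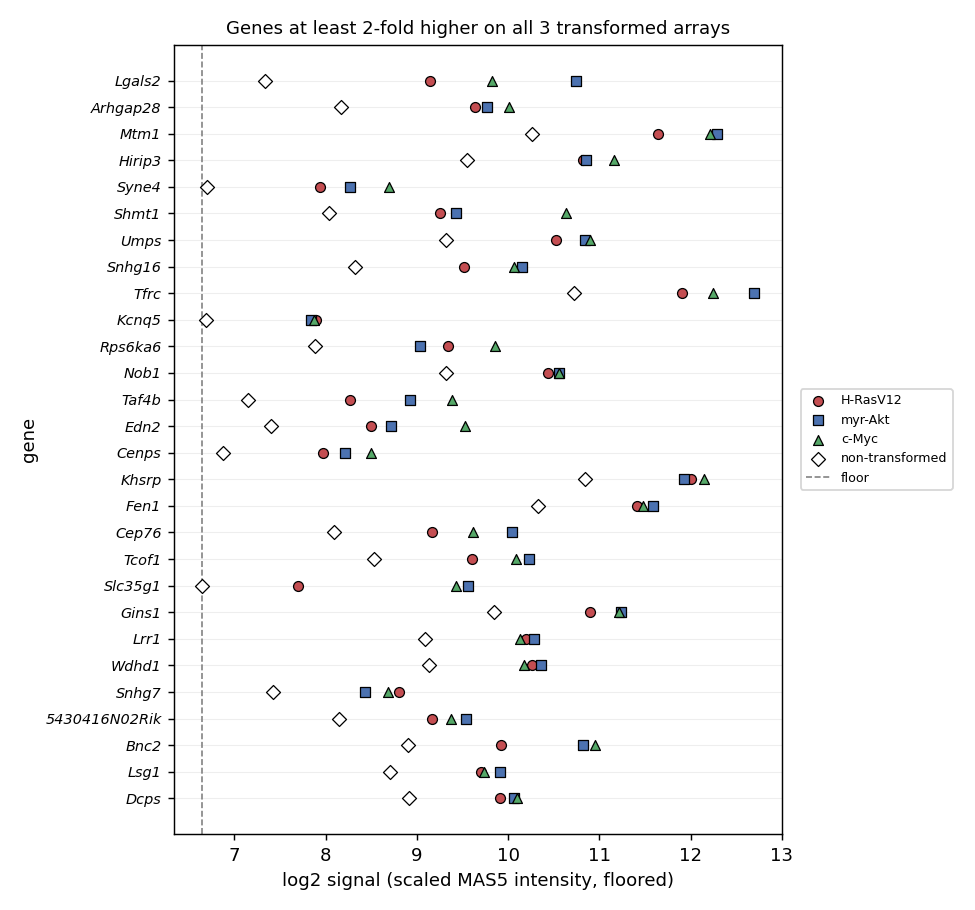
Log2 signals of the 28 genes at least 2-fold higher on all 3 transformed arrays are plotted, 1 gene a row, with a filled symbol for each transformed array, an open diamond for the non-transformed array and a dashed line at the floor. In each row the 3 filled symbols lie to the right of the diamond, and the H-RasV12 symbol is the nearest to it for 22 of the 28 genes.

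Growth-related gene lists differed by less than 2-fold for most members but in the same direction. These lists and those that follow were chosen with earlier results of these data known, so their shares are descriptions. Of 60 measured genes for ribosome biogenesis and RNA polymerase I, 60 were above the non-transformed array on all 3 transformed arrays (100%, beside 29.3% of all genes measured). Of these, 1, Nob1, passed 2-fold on all 3 (1.67%, beside 0.262% of all genes). The list's median log2 difference was 0.60 in H-RasV12, 1.01 in myr-Akt and 1.06 in the array labelled c-Myc, beside medians of 0.00, -0.02 and 0.00 over all genes measured. Without the H-RasV12 array, 28 of the 60 passed 2-fold on the other 2, and without the myr-Akt array 2 did. The shares of all genes higher were then 2.84% and 0.318%. Fbl, the methyltransferase fibrillarin that modifies ribosomal RNA, had signals of 8924 in H-RasV12, 12537 in myr-Akt and 12359.5 in the array labelled c-Myc, against 5364 in non-transformed cells. Polr1b, the second-largest subunit of RNA polymerase I, had signals of 773 in H-RasV12, 1106 in myr-Akt and 1401 in the array labelled c-Myc, against 431 in non-transformed cells. Ncl and Npm1, abundant nucleolar proteins, ranged from 18959.6 to 22269.6 on the 3 transformed arrays, against 13158 on the non-transformed array for Ncl, and from 21612 to 24960.0 on the 3 transformed arrays, against 16365 on the non-transformed array for Npm1. The mean difference over the 3 arrays was largest for Noc2l (1.38) and smallest for Nop10 (0.24), both factors of ribosome assembly or RNA modification. The cytosolic ribosomal proteins themselves were close to the non-transformed array. Of 35 measured, 62.9% were above it on all 3 arrays with a median mean difference of 0.09, and setting each array's median difference to 0 gave 13 above it in place of 22.

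Mitochondrial ribosome and import genes showed the same one-sided pattern at smaller size, with 34 of 34 above the non-transformed array on all 3 transformed arrays and a median mean difference of 0.49. The import chaperone Timm8a1 (5182 to 7890.0 on the 3 transformed arrays, against 3439 on the non-transformed array) was highest of that list by mean difference. Of 40 DNA replication and origin licensing genes, 90% were above the non-transformed array on all 3, with a median of 0.73. Of these genes 2, Fen1 and Gins1, passed 2-fold (5%, beside 0.262% of all genes). Leaving out H-RasV12 raised that count to 11, and the share of all genes higher to 2.84%. The helicase subunits Mcm2 to Mcm7 were each above the non-transformed array, with Mcm5 at 4726 in H-RasV12, 6713 in myr-Akt and 6543 in the array labelled c-Myc, against 2966 in non-transformed cells. Pcna, the sliding clamp, was bright everywhere and ranged from 16962 to 18806 on the 3 transformed arrays, against 13072 on the non-transformed array. Of 35 genes for nucleotide, serine and one-carbon synthesis, 77.1% were above on all 3 arrays and the median was 0.65. In this list 2 passed 2-fold (5.71%, beside 0.262% of all genes), and 7 did without H-RasV12, beside 2.84% of all genes. Cad, which starts pyrimidine synthesis, missed the threshold on 1 array, with log2 differences of 0.93 in H-RasV12, 1.41 in myr-Akt and 1.68 in the array labelled c-Myc. Aldh1l2, a mitochondrial folate enzyme of the same list, went the other way, with signals of 811 in H-RasV12, 882 in myr-Akt and 522 in the array labelled c-Myc, against 1742 in non-transformed cells.

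Further lists with a majority of members above the non-transformed array had no member past 2-fold on all 3 (0.262% of all genes were higher). They were nucleoporins and transport receptors (93.5% of 31, median 0.61), mitosis and spindle checkpoint genes (85% of 40, median 0.52), chromatin, DNA methylation and PRC2 genes (69.6% of 23, median 0.53) and oxidative phosphorylation (53.2% of 47, median 0.22). Dnmt1, the maintenance DNA methyltransferase, was even at 3986 in H-RasV12, 3584 in myr-Akt and 3942 in the array labelled c-Myc, against 2254 in non-transformed cells. Uhrf1, which recruits DNMT1 to replicated DNA, ranged from 1703 to 2471 on the 3 transformed arrays, against 985 on the non-transformed array. Mki67, the proliferation marker, had signals of 5167 in H-RasV12, 6870.3 in myr-Akt and 6393 in the array labelled c-Myc, against 3819 in non-transformed cells, and was far above the floor in all 4 cultures.

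**Figure D2:**
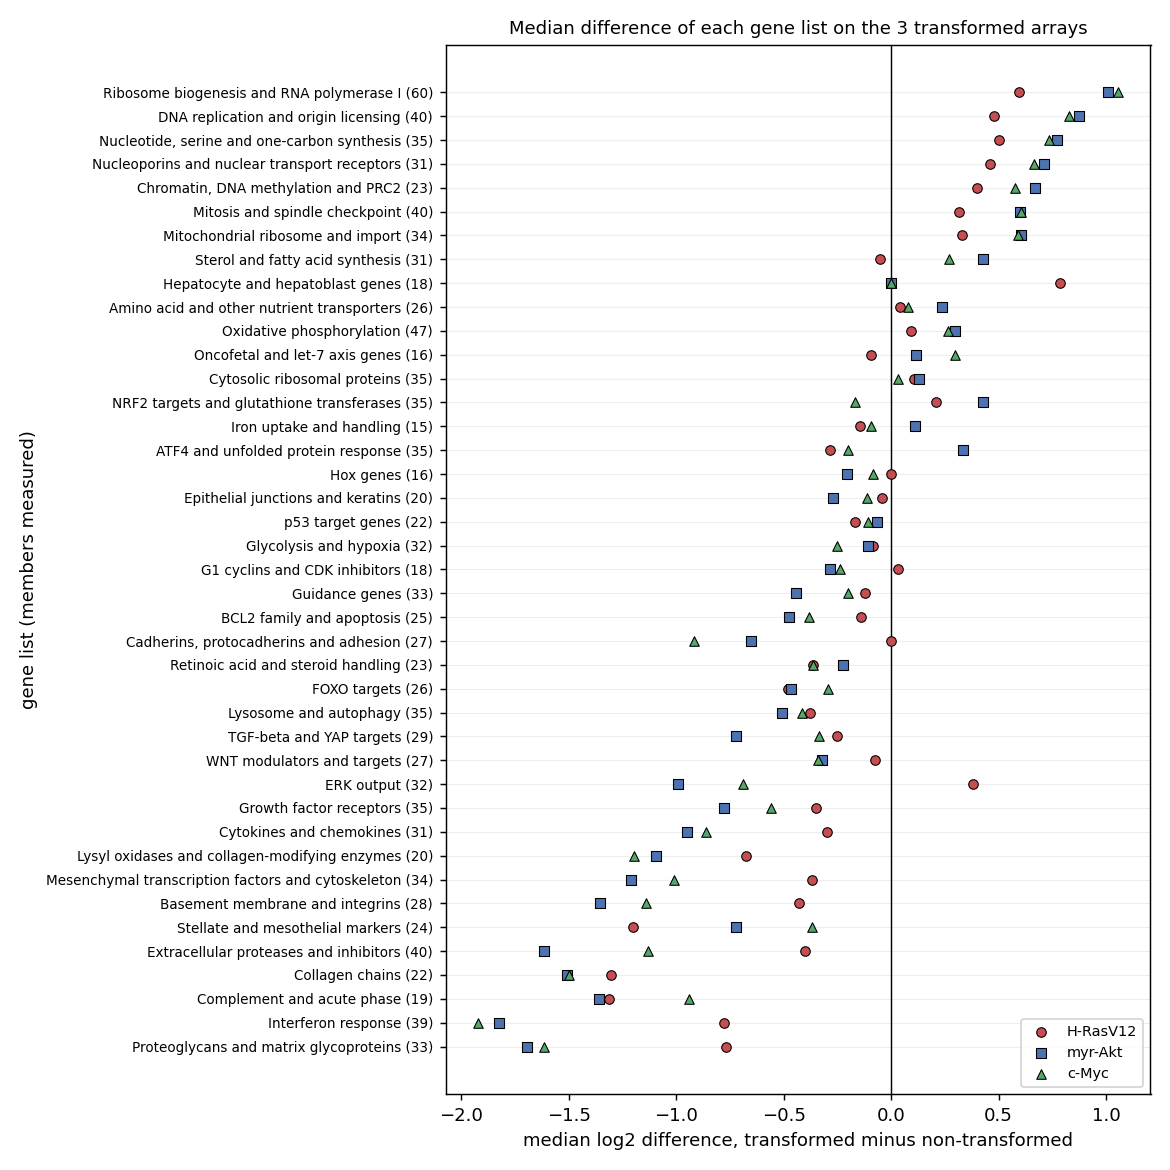
The median log2 difference from the non-transformed array is shown for each gene list with at least 15 measured members. Symbols stand for H-RasV12 (circles), myr-Akt (squares) and the array labelled c-Myc (triangles), 1 list a row with its number of measured members. Rows are ordered by the median of each gene's mean difference over the 3 arrays, from ribosome biogenesis at 0.88 to proteoglycans and matrix glycoproteins at -1.76. The order differs on H-RasV12 alone, where the hepatocyte and hepatoblast list lies farther right (0.79) than ribosome biogenesis (0.60).

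The lower genes included matrix proteins, contractile proteins, interferon-response genes and secreted factors. S100a4, a calcium-binding protein used as a fibroblast and metastasis marker, had signals of 844 in H-RasV12, 676 in myr-Akt and 1303 in the array labelled c-Myc, against 10832 in non-transformed cells. It was 8.31 to 16.0 fold lower on the transformed arrays. Gabrb1, a subunit of the GABA-A chloride channel, had signals of 236 in H-RasV12, 198 in myr-Akt and 279 in the array labelled c-Myc, against 2699 in non-transformed cells. Its 3 transformed signals lay close together, and its smallest log2 difference, -3.27, was the largest in size of any gene above the floor on all 4 arrays. Selenom, a selenoprotein of the endoplasmic reticulum, was more even, with signals of 867 in H-RasV12, 727 in myr-Akt and 719 in the array labelled c-Myc, against 3943 in non-transformed cells. Tmem119, a membrane protein of osteoblasts and microglia, had signals of 951 in H-RasV12, 979 in myr-Akt and 737 in the array labelled c-Myc, against 4020.4 in non-transformed cells. Prickle2, a planar polarity protein, ranged from 108 to 183 on the 3 transformed arrays, against 994 on the non-transformed array, and Kif26b, a kinesin-family protein of cell adhesion, ranged from 212 to 299 on the 3 transformed arrays, against 1618 on the non-transformed array.

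Of the lower genes, 8 are shown because they were the brightest in non-transformed cells of those under the floor on all 3 transformed arrays, so their folds are bounds set by the floor. Lcn2, the siderophore-binding acute phase protein lipocalin 2, was at least 16.7-fold lower on each transformed array than its non-transformed signal of 1675. Kcnj15, an inwardly rectifying potassium channel, was at least 10.9-fold lower than its non-transformed signal of 1093. Slc1a6, a glutamate transporter, was at least 9.61-fold lower than 961. These 3 genes had no transformed signal above 68.9. Map2, a microtubule protein of neurons, was at least 7.90-fold lower than 789.9, and Septin4, a filament-forming GTPase, at least 5.84-fold lower than 584. Gbp2, Lama2 and Col4a4 are described with their groups.

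**Figure D3:**
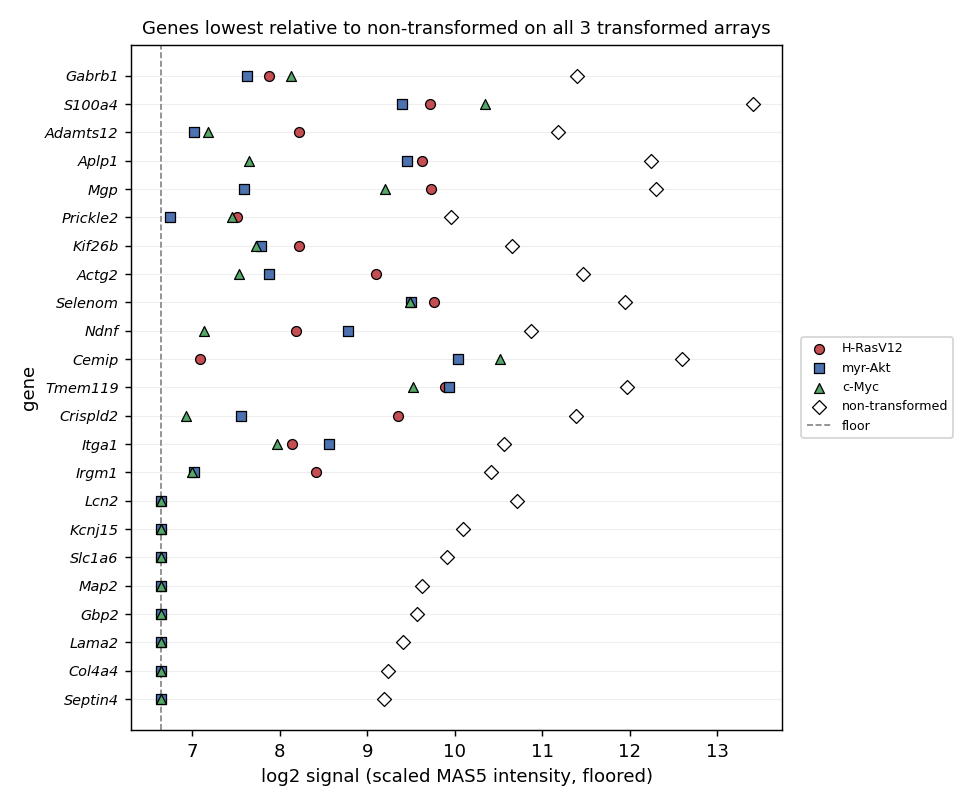
Log2 signals are plotted for the 15 genes above the floor on all 4 arrays that lay farthest below the non-transformed array (Gabrb1 to Irgm1) and the 8 brightest genes at the floor on all 3 transformed arrays (Lcn2 to Septin4), with filled symbols for transformed arrays and an open diamond for the non-transformed array. The diamond lies to the right in every row, and for the last 8 genes the filled symbols coincide at the dashed line that marks the floor.

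Many matrix genes were lower on all 3 arrays. Of 22 measured collagen chain genes, 7 were lower on all 3 arrays (31.8%, beside 2.7% of all genes measured), 0 were higher, and 77.3% were below the non-transformed array on all 3. Some members counted as measured only because the non-transformed array was above the floor, so counts are also given for members above the floor on all 4 arrays, of which 1.47% were lower over all genes. For collagens that count was 4 of 15. Col1a1, a chain of the main fibrillar collagen, had signals of 3536 in H-RasV12, 2598 in myr-Akt and 2120.3 in the array labelled c-Myc, against 12325 in non-transformed cells, log2 differences of -1.80 in H-RasV12, -2.25 in myr-Akt and -2.54 in the array labelled c-Myc. Its partner chain Col1a2 did not pass on every array, with signals of 21412 in H-RasV12, 15479 in myr-Akt and 3578 in the array labelled c-Myc, against 27502 in non-transformed cells. Col4a2, a chain of the basement membrane network, ranged from 3929 to 5406 on the 3 transformed arrays, against 12929 on the non-transformed array. Col8a1 was above the floor on 1 transformed array, with 661 in H-RasV12 and signals under the floor in myr-Akt and in the array labelled c-Myc, against 1907 in non-transformed cells. Col4a4 was under the floor on all 3 transformed arrays, at least 6.06-fold lower than its non-transformed signal of 606. Without the H-RasV12 array, 13 collagen genes passed, and here and in the lists that follow the share of all genes lower without it was 9.16%. In such bulk RNA, fewer cells of a type and less RNA per cell cannot be told apart.

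The enzymes that cross-link collagen followed. Lox, the lysyl oxidase, had signals of 4271 in H-RasV12, 4309 in myr-Akt and 5664 in the array labelled c-Myc, against 17628 in non-transformed cells, and the 3 transformed arrays lay within a log2 range of 0.41. Loxl1, a related enzyme that acts on elastin, was less even, with signals of 734 in H-RasV12, 606 in myr-Akt and 3335 in the array labelled c-Myc, against 9627 in non-transformed cells. These 2 were the only members of a list of 20 to pass on all 3 arrays (10%, and 2 of 18 above the floor on all 4), but 90% of the list was below the non-transformed array, with a median mean difference of -0.88, and 10 passed without H-RasV12.

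Of 33 measured proteoglycans and matrix glycoproteins, 8 were lower on all 3 arrays (24.2%, and 7 of 23 above the floor on all 4) and the median mean difference was -1.76. Mgp, the matrix Gla protein that inhibits calcification, had signals of 846 in H-RasV12, 192 in myr-Akt and 589 in the array labelled c-Myc, against 5030.3 in non-transformed cells. Fbln5, which organises elastic fibres, had signals of 1494 in H-RasV12, 2450.5 in myr-Akt and 4290.3 in the array labelled c-Myc, against 13081 in non-transformed cells. Cemip, a hyaluronan-degrading protein, had signals of 136 in H-RasV12, 1051 in myr-Akt and 1464 in the array labelled c-Myc, against 6198 in non-transformed cells, and Ogn, the small proteoglycan osteoglycin, had signals of 109 in H-RasV12, 626 in myr-Akt and 589 in the array labelled c-Myc, against 1641 in non-transformed cells. In Fbln5, Cemip and Ogn the H-RasV12 array was the lowest, whereas in Crispld2, a secreted glycoprotein, it was the highest of the transformed arrays, with signals of 652 in H-RasV12, 188 in myr-Akt and 122 in the array labelled c-Myc, against 2674 in non-transformed cells. The remaining members that passed were Ltbp2, Ecm1 and Mfap2. Fbn2, a fibrillin of the same list, was above the non-transformed array on all 3, with log2 differences of 0.58 in H-RasV12, 1.92 in myr-Akt and 1.82 in the array labelled c-Myc. Without H-RasV12, 17 members passed.

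Of 28 measured basement membrane and integrin genes, 8 were lower on all 3 arrays (28.6%, beside 2.7% of all genes), with a median mean difference of -0.95. Above the floor on all 4 arrays, 5 of 22 were lower, and 4 of the 28 were above it on the non-transformed array only. Lama2, the laminin alpha 2 chain, was under the floor on all 3 transformed arrays and at least 6.79-fold lower than its non-transformed signal of 679. Itga1, the alpha subunit of a collagen-binding integrin, had signals of 282 in H-RasV12, 377 in myr-Akt and 250.2 in the array labelled c-Myc, against 1516 in non-transformed cells. The integrin genes Itga7 and Itga8, partners of laminin and of RGD-containing matrix proteins, were lower too, with Itga8 under the floor on all 3 transformed arrays. Gpc4 and Sdc2, cell surface heparan sulfate proteoglycans, ranged from 284 to 561 on the 3 transformed arrays, against 1545 on the non-transformed array for Gpc4, and from 1095 to 1405 on the 3 transformed arrays, against 3591 on the non-transformed array for Sdc2. Agrn and Lamb2 completed the group, and 15 members passed without H-RasV12.

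Extracellular proteases and their inhibitors were lower in 14 of 40 measured members (35%, beside 2.7% of all genes). Above the floor on all 4 arrays, 8 of 28 were lower, and 4 of the 40 were above it on the non-transformed array only. Adamts12, a secreted metalloprotease with thrombospondin repeats, had signals of 298 in H-RasV12, 130.1 in myr-Akt and 145 in the array labelled c-Myc, against 2319 in non-transformed cells. Mmp14, the membrane-anchored matrix metalloprotease, ranged from 1373 to 2375 on the 3 transformed arrays, against 5559 on the non-transformed array. Mmp2, the gelatinase that MMP14 activates, was uneven, with signals of 2406 in H-RasV12, 359 in myr-Akt and 546 in the array labelled c-Myc, against 5254 in non-transformed cells. Timp3, an inhibitor of such enzymes that binds to the matrix, had signals of 6322 in H-RasV12, 5054 in myr-Akt and 6093 in the array labelled c-Myc, against 16923 in non-transformed cells. Proteases and an inhibitor were lower, and the H-RasV12 array was the nearest to the non-transformed one for Mmp2 and Mmp14. Prss23, a serine protease, ranged from 704 to 1869.9 on the 3 transformed arrays, against 7234 on the non-transformed array, and Serpinf1, the secreted serpin PEDF, from 39.8 to 318 on the 3 transformed arrays, against 1862 on the non-transformed array, with the myr-Akt and c-Myc-labelled arrays under the floor. The other members were C1s1, C1ra, Serping1, Htra1, Mmp3, Adamts1, Adamts5 and Adamts7. With H-RasV12 left out the count was 21.

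Contractile and mesenchymal genes were lower in 8 of 34 measured members (23.5%, and 5 of 22 above the floor on all 4 arrays), with a median mean difference of -0.93. Actg2, the smooth muscle gamma actin, had signals of 548 in H-RasV12, 235 in myr-Akt and 186 in the array labelled c-Myc, against 2832 in non-transformed cells. Myh11, the smooth muscle myosin heavy chain, had 151 in H-RasV12 and signals under the floor on the other 2 transformed arrays, against 1447 in non-transformed cells. Cnn1 and Myl9, a thin filament regulator and a myosin light chain, had their H-RasV12 signal nearest to the non-transformed one. Cnn1 had signals of 2328 in H-RasV12, 873 in myr-Akt and 1187 in the array labelled c-Myc, against 5604 in non-transformed cells. Myl9 had signals of 4284 in H-RasV12, 1295 in myr-Akt and 1528 in the array labelled c-Myc, against 9849 in non-transformed cells. Acta2, the smooth muscle alpha actin, and Vim, vimentin, did not pass, and Acta2 had signals of 26471 in H-RasV12, 19539 in myr-Akt and 25390.4 in the array labelled c-Myc, against 33456 in non-transformed cells. The adhesion molecule Cdh11 ranged from 204 to 372 on the 3 transformed arrays, against 1222 on the non-transformed array. The S100a4 values given above belong to this list, and 17 members passed without H-RasV12.

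The 4 stellate markers were lower in sum where the matrix and contractile genes were lower, and their part in those differences was not tested. Mesothelial markers differed in another order of arrays. The summed signal of the stellate markers Des, Pdgfrb, Lrat and Rgs5 was 1170.1 in H-RasV12, 199.6 in myr-Akt and 100.4 in the array labelled c-Myc, against 2575 in non-transformed cells, and 3, 1 and 0 of them were above the floor on the transformed arrays, against 3 on the non-transformed one. Lrat was at the floor on all 4 arrays. In the wider list of stellate and mesothelial genes, 5 of 24 were lower on all 3 arrays (20.8%, and 2 of 13 above the floor on all 4), and 8 without H-RasV12. The list's median log2 difference was -1.20 in H-RasV12, -0.72 in myr-Akt and -0.37 in the array labelled c-Myc, whereas that of the proteoglycan and glycoprotein list was -0.77, -1.69 and -1.61 in the same order. Des, the intermediate filament desmin, had signals of 241 in H-RasV12, 119 in myr-Akt and 67.8 in the array labelled c-Myc, against 1175 in non-transformed cells. Msln, mesothelin, was the most uneven of the lower genes above the floor, with signals of 3096 in H-RasV12, 238 in myr-Akt and 348 in the array labelled c-Myc, against 7836 in non-transformed cells and a log2 range of 3.70 among the transformed arrays. The mesothelial genes Upk3b and Lrrn4 did not share this pattern. Upk3b had signals of 1299 in H-RasV12, 12838 in myr-Akt and 11557 in the array labelled c-Myc, against 15167 in non-transformed cells, so H-RasV12 alone was far from the non-transformed array. Crabp1, a retinoic acid carrier, was the reverse, with signals of 2421 in H-RasV12, 1.9 in myr-Akt and 12.8 in the array labelled c-Myc, against 4928 in non-transformed cells. Muc16 and the caveolin gene Cav1 were the other members that passed.

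Interferon-response genes formed the next group, with 15 of 39 measured members lower on all 3 arrays (38.5%, beside 2.7% of all genes), 0 higher and 82.1% below the non-transformed array. Irgm1, an interferon-induced GTPase of cell-autonomous defence, had signals of 342 in H-RasV12, 129.5 in myr-Akt and 128 in the array labelled c-Myc, against 1361 in non-transformed cells. The H-RasV12 array was the highest of the transformed arrays and the other 2 were nearly equal. Gbp2, a guanylate-binding protein of the same defence system, was under the floor on all 3 transformed arrays, at least 7.57-fold lower than its non-transformed signal of 757. Gbp3 was likewise under the floor, against 379 in non-transformed cells. Igtp, a related GTPase, had 124 in H-RasV12 and was under the floor on the other 2 transformed arrays, against 440.0 in non-transformed cells. The promoters of these 4 genes are shown because they hold letters of the interferon-response element, which STAT and IRF factors recognise. Sequences are from RefSeq on the mouse build GRCm38.p6 and run 5′ to 3′ on the gene's strand from 250 bases before to 50 bases after its start. Capitals mark each match to GAAA followed by any 2 bases and a further GAAA, searched on both strands, and overlapping matches run together. The regions are chr3:142620413-142620712 on the plus strand for Gbp2, chr11:48871371-48871670 on the minus strand for Irgm1, chr3:142559794-142560093 on the plus strand for Gbp3 and chr11:58199306-58199605 on the plus strand for Igtp.
Gbp2: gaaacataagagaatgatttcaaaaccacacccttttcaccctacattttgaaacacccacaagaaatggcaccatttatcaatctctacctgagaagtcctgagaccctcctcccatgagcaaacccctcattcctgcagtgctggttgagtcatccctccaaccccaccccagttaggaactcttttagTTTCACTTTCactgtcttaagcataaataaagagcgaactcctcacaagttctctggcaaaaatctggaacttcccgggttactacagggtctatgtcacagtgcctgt
Irgm1: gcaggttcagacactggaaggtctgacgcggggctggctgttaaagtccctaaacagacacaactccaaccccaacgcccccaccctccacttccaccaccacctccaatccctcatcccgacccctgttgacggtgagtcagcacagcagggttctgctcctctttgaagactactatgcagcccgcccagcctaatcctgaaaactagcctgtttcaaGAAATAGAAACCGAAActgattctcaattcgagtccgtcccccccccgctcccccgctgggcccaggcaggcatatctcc
Gbp3: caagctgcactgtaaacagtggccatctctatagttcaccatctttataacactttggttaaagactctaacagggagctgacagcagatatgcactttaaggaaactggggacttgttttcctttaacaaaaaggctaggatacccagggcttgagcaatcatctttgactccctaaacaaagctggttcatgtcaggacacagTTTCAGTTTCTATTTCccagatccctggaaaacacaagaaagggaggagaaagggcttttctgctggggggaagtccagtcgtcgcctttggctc
Igtp: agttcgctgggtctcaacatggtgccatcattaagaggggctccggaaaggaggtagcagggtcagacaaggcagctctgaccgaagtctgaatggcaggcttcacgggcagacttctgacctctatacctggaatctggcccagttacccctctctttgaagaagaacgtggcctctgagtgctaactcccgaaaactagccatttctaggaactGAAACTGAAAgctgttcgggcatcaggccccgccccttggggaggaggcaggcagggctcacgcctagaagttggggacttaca
The matches began at position -59 relative to the gene start for Gbp2, -30 and -24 for Irgm1, -45 and -39 for Gbp3 and -34 for Igtp, so each lay in the last 60 bases before the start.

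Across the list, 18 of 34 interferon-response promoters in the table held the element in this spelling (52.9%), and 9 of the 15 lower members did (60%). The share was 2.77% over 8725 promoters of measured genes and 3.44% over all 32851 promoters in the table. Of 228 promoters of lower genes, 20 held it (8.77%). The lower members whose promoter lacked these letters were Ifi35, Ifi47, Oasl2, Parp12, Sp100 and Xaf1. The list was collected as interferon targets, so its share of this element describes the list and not the comparison.

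Several further lower interferon genes kept a signal above the floor in H-RasV12 and not in the other 2 cultures. Ifit1, an inhibitor of viral RNA translation, had 470.2 in H-RasV12, with myr-Akt and the array labelled c-Myc under the floor, against 1056 in non-transformed cells. Xaf1, an interferon-induced antagonist of XIAP, had 876 in H-RasV12 and was under the floor on the other 2, against 1975 in non-transformed cells. Ifi47 and Ifit3 showed this too, with 173 and 192 in H-RasV12, against 937 and 596 in non-transformed cells. Ifi35 and Parp12 stayed above the floor everywhere. Ifi35 had signals of 1565 in H-RasV12, 1251 in myr-Akt and 1329 in the array labelled c-Myc, against 3184 in non-transformed cells, and Parp12 had signals of 364 in H-RasV12, 163 in myr-Akt and 223 in the array labelled c-Myc, against 851 in non-transformed cells. Ifi27, a mitochondrial and nuclear envelope protein that interferon induces, missed the rule through H-RasV12 alone, with signals of 2311 in H-RasV12, 159 in myr-Akt and 67.4 in the array labelled c-Myc, against 3580.4 in non-transformed cells. Of the 39 members, 15 were above the floor on all 4 arrays and 7 on the non-transformed array only, and 3 of the 15 passed. The count was 29 without H-RasV12. Of the 5 macrophage markers, 2, 2 and 0 were above the floor on the H-RasV12, myr-Akt and c-Myc-labelled arrays, against 1 on the non-transformed array, with summed signals of 307 in H-RasV12, 296 in myr-Akt and 168 in the array labelled c-Myc, against 237 in non-transformed cells.

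Antigen presentation by MHC class I, another interferon-inducible system, did not pass in any of 11 measured members, which for so few genes is near the 2.7% of all genes lower. B2m, the light chain of class I molecules, was below the non-transformed array by log2 differences of -0.43 in H-RasV12, -0.78 in myr-Akt and -0.92 in the array labelled c-Myc. H2-K1 was close to it, with signals of 2629 in H-RasV12, 3638 in myr-Akt and 3055 in the array labelled c-Myc, against 3072 in non-transformed cells, from an _x_at probe set.

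**Figure D4:**
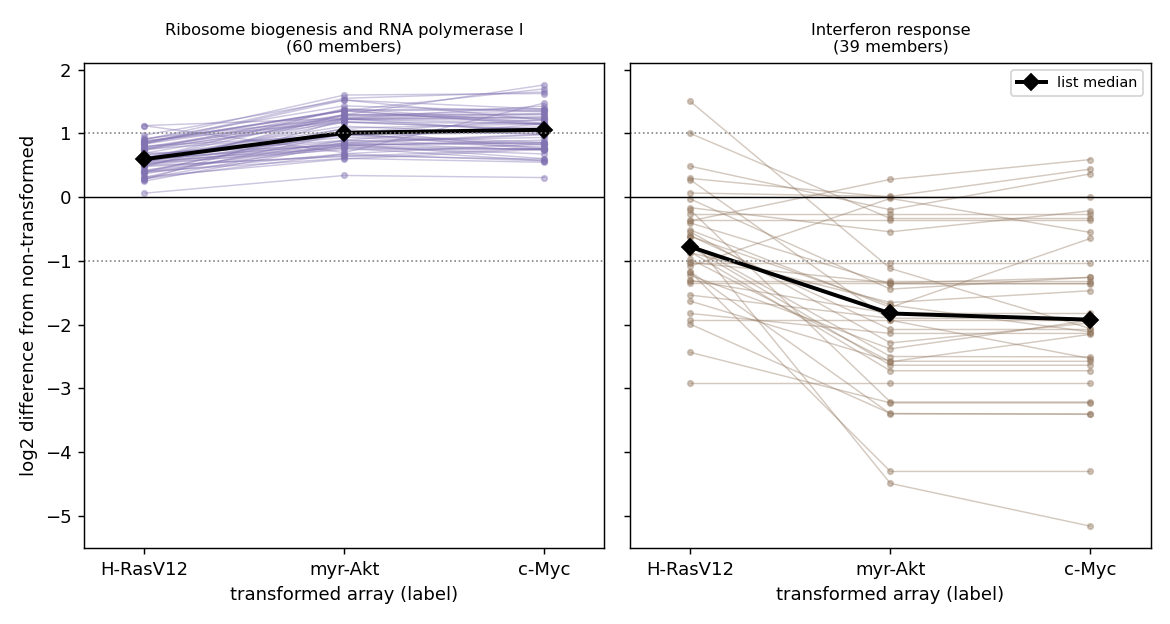
Log2 differences from the non-transformed array are drawn for each measured member of the ribosome biogenesis list (60 genes) and of the interferon-response list (39 genes), 1 thin line a gene joining the H-RasV12, myr-Akt and c-Myc-labelled arrays, with the list median in black and dotted lines at a log2 difference of 1 and -1. All lines of the first list lie above 0, and its median is 0.60, 1.01 and 1.06, while the median of the second is -0.78, -1.83 and -1.92.

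Complement and acute phase genes had the highest share of lower members of any list, 8 of 19 measured (42.1%, beside 2.7% of all genes). The lists were chosen with earlier results known and overlap, and C1s1, C1ra and Serping1 were also counted among the proteases and inhibitors. C1s1, which encodes a serine protease that starts the classical complement cascade, had signals of 130.5 in H-RasV12, 83.5 in myr-Akt and 487 in the array labelled c-Myc, against 5014 in non-transformed cells. Its myr-Akt value was under the floor, and its probe set is of the _s_at kind. Its partner protease C1ra was under the floor in H-RasV12 and in myr-Akt and had 225 in the array labelled c-Myc, against 727 in non-transformed cells. Serping1, the inhibitor of both proteases, ranged from 27.1 to 147 on the 3 transformed arrays, against 317 on the non-transformed array, with myr-Akt under the floor. Cp, the copper-carrying ferroxidase ceruloplasmin, had signals of 1218 in H-RasV12, 537 in myr-Akt and 368 in the array labelled c-Myc, against 3024 in non-transformed cells. Steap4, a metalloreductase, Cd59a, which blocks the terminal complement complex, Lcn2 and C1qtnf6 were the other members. Of the 19, 9 were above the floor on every array, and 1 of those, Cp, was lower on all 3. With Tfrc higher and Lcn2 and Cp lower, the iron list of 15 measured genes held members of both directions.

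Of 31 measured cytokine and chemokine genes, 3 were lower on all 3 arrays (9.68%, beside 2.7% of all genes, and 3 of 20 above the floor on all 4). Ccl7, a monocyte attractant, had signals of 137 in H-RasV12, 411 in myr-Akt and 294 in the array labelled c-Myc, against 1188 in non-transformed cells. Il18, a cytokine of the interleukin 1 family, had signals of 140.3 in H-RasV12, 435 in myr-Akt and 118 in the array labelled c-Myc, against 1114 in non-transformed cells, and Tnfrsf1b, a receptor of TNF, had signals of 222 in H-RasV12, 293 in myr-Akt and 209 in the array labelled c-Myc, against 916 in non-transformed cells. Both Ccl7 and Il18 were highest in myr-Akt among the transformed arrays, whereas Tnfrsf1b was even. The count was 12 without H-RasV12.

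Genes of ERK output and growth factor receptors passed about as often as all genes. Dusp1, the phosphatase that inactivates MAP kinases in the nucleus, was the only lower member of 32 genes of ERK output (3.12%, near the 2.7% of all genes), with signals of 3744 in H-RasV12, 4835 in myr-Akt and 3624 in the array labelled c-Myc, against 10126 in non-transformed cells. The other members of that list split by array, since its median log2 difference was 0.38 in H-RasV12, -0.99 in myr-Akt and -0.69 in the array labelled c-Myc, and 11 members were lower on the last 2 arrays together. Gas6, the ligand of the AXL family of receptor kinases, had signals of 678 in H-RasV12, 3174 in myr-Akt and 3948 in the array labelled c-Myc, against 8176 in non-transformed cells, so H-RasV12 was the lowest. Of 35 growth factor and receptor genes measured, it alone passed (2.86%, also near 2.7%), and 10, 2 and 3 passed without H-RasV12, myr-Akt and the array labelled c-Myc. Among 10 measured IGF-binding and related genes 2 passed (20%, beside 2.7% of all genes). Above the floor on all 4 arrays it was 2 of 7, beside 1.47% of all genes. Igfbp5 of this list went the other way, with a mean log2 difference of 2.19, though 0 members passed 2-fold higher on all 3. Igfbp6, which sequesters IGF2, ranged from 592 to 1398 on the 3 transformed arrays, against 3567 on the non-transformed array, and Htra1, a protease of IGF-binding proteins and matrix, from 799.6 to 2152 on the 3 transformed arrays, against 6511 on the non-transformed array.

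Of 26 measured targets of FOXO factors, which AKT inactivates, 2 were lower on all 3 arrays (7.69%, beside 2.7% of all genes). Txnip, an inhibitor of thioredoxin and of glucose uptake, had signals of 1301 in H-RasV12, 671 in myr-Akt and 755 in the array labelled c-Myc, against 3186 in non-transformed cells. Selenop, the plasma selenium carrier, had signals of 2209 in H-RasV12, 710.0 in myr-Akt and 1202 in the array labelled c-Myc, against 7099 in non-transformed cells. In both genes the myr-Akt array was the lowest and the non-transformed array the highest. The list as a whole was not lowest in myr-Akt. Its median log2 difference was -0.48 in H-RasV12, -0.46 in myr-Akt and -0.29 in the array labelled c-Myc. Its mean differences ran from -2.68 for Pdk4 to 2.24 for Depp1. Without H-RasV12, 4 of the 26 FOXO targets passed, beside 9.16% of all genes. Gpx3, the secreted glutathione peroxidase, had 584 in H-RasV12 and signals under the floor on the other 2 transformed arrays, against 1640.3 in non-transformed cells. It was the only lower member of 35 measured NRF2 targets and glutathione transferases (2.86%, near the 2.7% of all genes), and 4 passed without H-RasV12.

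Several other lists had 1 or 2 lower members. The share was 1 of 35 for the ATF4 and stress list (2.86%) and 1 of 27 for WNT genes (3.7%), near the 2.7% of all genes. It was 2 of 29 for TGF-beta and YAP targets (6.9%), 2 of 32 for glycolysis and hypoxia (6.25%) and 2 of 23 for retinoic acid handling (8.7%). Nupr1, a small chromatin protein that stress induces, had signals of 326 in H-RasV12, 1147 in myr-Akt and 454 in the array labelled c-Myc, against 3562 in non-transformed cells. Ccn4, a matricellular WNT target, had signals of 1265 in H-RasV12, 1332 in myr-Akt and 797 in the array labelled c-Myc, against 3565 in non-transformed cells. Pmepa1, a TGF-beta target that restrains SMAD signalling, lay just inside the threshold with signals of 1602 in H-RasV12, 816 in myr-Akt and 673 in the array labelled c-Myc, against 3209 in non-transformed cells. Slc2a3, the neuronal-type glucose transporter GLUT3, had signals of 847 in H-RasV12, 1057 in myr-Akt and 1753 in the array labelled c-Myc, against 4267 in non-transformed cells, from an _s_at probe set. Dhrs3, a reductase that returns retinal to retinol, had signals of 725 in H-RasV12, 1316 in myr-Akt and 394 in the array labelled c-Myc, against 2769 in non-transformed cells. Adm, the hypoxia-inducible peptide adrenomedullin, was under the floor on all 3 transformed arrays, at least 2.06-fold lower than its non-transformed signal of 206. In each of these genes the non-transformed array was the highest. Without H-RasV12, where 9.16% of all genes passed, the counts were 2 for the ATF4 and stress list, 7 for WNT genes, 8 for TGF-beta and YAP targets, 4 for glycolysis and hypoxia and 6 for retinoic acid handling.

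Single lower genes with known roles in nervous tissue are given by value, without a count of such genes. Aplp1, a homologue of the amyloid precursor protein, had signals of 794 in H-RasV12, 702 in myr-Akt and 200.1 in the array labelled c-Myc, against 4862 in non-transformed cells, from an _s_at probe set. Ndnf, a secreted neurotrophic factor, had signals of 292 in H-RasV12, 441 in myr-Akt and 141 in the array labelled c-Myc, against 1876 in non-transformed cells. The guidance ligands Slit2 and Slit3, which bind ROBO receptors, were both lower. Slit2 had signals of 213 in H-RasV12, 136 in myr-Akt and 314 in the array labelled c-Myc, against 1005 in non-transformed cells, and Slit3 had signals of 628 in H-RasV12, 483 in myr-Akt and 1079 in the array labelled c-Myc, against 2622 in non-transformed cells. In both, myr-Akt was the lowest and the array labelled c-Myc the highest of the transformed arrays. They were 2 of 33 guidance genes measured (6.06%, beside 2.7% of all genes). Without H-RasV12 and without the array labelled c-Myc, 5 and 4 passed, beside 9.16% and 3.5% of all genes. Cd34, a sialomucin of vascular and progenitor cells, was under the floor on all 3 transformed arrays, at least 5.40-fold lower than 540.5 in non-transformed cells. Of 25 measured apoptosis genes, Casp12 and Birc3 were lower (8%, beside 2.7% of all genes), and 4 passed without H-RasV12, beside 9.16%. Above the floor on all 4 arrays, 0 of 19 were lower, so both genes were at the floor on a transformed array. Birc3, an inhibitor of apoptosis, ranged from 77.2 to 231 on the 3 transformed arrays, against 518 on the non-transformed array.

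Some programmes had no member past 2-fold on all 3 arrays in either direction. They included 18 hepatocyte and hepatoblast genes, 14 biliary and progenitor genes, 20 epithelial junction and keratin genes, 16 Hox genes, 18 G1 cyclin and CDK inhibitor genes, 31 sterol and fatty acid synthesis genes and 22 p53 target genes, counting measured members. Over all genes 2.7% were lower and 0.262% higher, so 0 in lists of these sizes is near those shares. Of the 18 hepatocyte and hepatoblast genes, 8 were at the floor on the non-transformed array and could not be lower, and 3 were above it on all 4 arrays. Apoa1, an apolipoprotein made by hepatocytes, shows how arrays could oppose each other, with signals of 4299.7 in H-RasV12, 4.9 in myr-Akt and 1.5 in the array labelled c-Myc, against 638 in non-transformed cells. Of all genes measured, 105 were at least 2-fold higher on 1 transformed array and at least 2-fold lower on another. Of 35 lysosome and autophagy genes, 0 passed, but 74.3% were below the non-transformed array on all 3, beside 30.8% of all genes, with a median mean difference of -0.42.

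The threshold for lower genes also split a continuous range. Pmepa1 and Slc25a23, a mitochondrial carrier, lay just inside it, and Slc25a23 had signals of 139.5 in H-RasV12, 142 in myr-Akt and 173 in the array labelled c-Myc, against 346 in non-transformed cells. Rab3d (302 in H-RasV12, 169 in myr-Akt and 194 in the array labelled c-Myc, against 604 in non-transformed cells) and Tcn2 (963 in H-RasV12, 278 in myr-Akt and 259.7 in the array labelled c-Myc, against 1924 in non-transformed cells) lay just outside, each through the H-RasV12 array. A less bright probe set above the floor existed for 102 of the 288 lower genes. It was lower on all 3 arrays for 101 of them and at least 2-fold lower for 58, and 0 opposed the chosen probe set by 2-fold. A less bright probe set above the floor on the non-transformed array alone is lower on all 3 by construction. Slit2 is a case, with a log2 difference of -0.05 on each array. The 101 are therefore a description and not separate support. The smallest of the 3 differences was counted on the H-RasV12 array for 194 of the 288 genes. That count includes the 63 genes at the floor on all 3 transformed arrays, whose 3 differences are equal and do not rank the arrays.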

How the data were processed

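RNA from 4 cultures was measured on single-colour Affymetrix mouse arrays, 1 array a label. The authors deposited linear intensities per probe set, and the submitters' processing notes name MAS5. The sources used here do not name its version, a filter or detection calls. These values show a prior scaling, because their 2% trimmed mean was 500.003 on every array.

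Arrays were rescaled to the same 2% trimmed mean, values under 20% of it were raised to this floor, and log2 values were computed with Python 3.11.15, numpy 2.4.6 and pandas 2.3.3 (figures with matplotlib 3.10.9). Of 45101 probe sets, 64 were controls, 34945 had 1 gene symbol in the platform annotation, 932 several and 9160 none. Entrez identifiers matched the RefSeq table (GRCm38.p6) for 34741, and 0 symbols were updated. The brightest single-gene probe set on average stood for each of 18193 genes, and 10679 genes above the floor on at least 1 array were measured. Of the columns, 0 were left out as belonging to other samples. Differences were taken within a probe set. Signals of different probe sets were ranked only to choose genes and summed only over marker lists, and their levels were not compared.

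Groups came from the labels. Genes were counted at a log2 difference of at least 1 on all 3 transformed arrays. With 1 array a group, the number of arrays limits the precision and no test was made. Labels give no batch, so batch and group cannot be told apart. The counting was tested on simulated data with 4-fold changes planted in bright probe sets. No changes near 2-fold and none in dim genes were planted, so that test does not cover such calls. The members and the 48 gene lists were chosen with earlier results of these data known.

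Genes were named by a rule. It took, per direction, the 15 largest smallest differences above the floor, the 8 brightest genes bounded by the floor on 1 side, the 5 most even of those past 4-fold and the 5 least even, the 2 on either side of the threshold, up to 6 called members of each list, and Akt1 and Myc. It passed over predicted and clone-named genes. Other genes, among them the rest of the 28, the remaining called members of lists, list extremes and marker genes, were named for their role or place after their values were seen. The alternatives were other floors, a pseudocount, quantile normalization, the mean over probe sets, centring, single probe sets, other thresholds and each transformed array left out.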

Additional observations from a re-analysis of the deposited data

How the results depend on the processing

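With 28 genes higher and 288 lower at the settings used, the floor at 10% of the trimmed mean gave 30 and 363, the floor at 40% gave 21 and 203, quantile normalization 39 and 257, and centring each array's median difference on 0 gave 21 and 315. A pseudocount of 100 in place of the floor left 9 higher genes and 207 lower, averaging a gene's probe sets left 13 and 198, and counting each probe set on its own gave 66 and 408. Requiring a signal above the floor on all 4 arrays left 27 and 132. At 1.5-fold the counts were 343 and 734, and at 4-fold they were 0 and 42. Leaving out 1 transformed array gave 34 to 303 higher and 326 to 978 lower genes. The upper ends were without H-RasV12, and a rule over 2 arrays in place of 3 cannot give fewer genes. Without the array labelled c-Myc, whose Myc probe set was the lowest, 37 were higher and 374 lower.

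All 316 genes past 2-fold, higher and lower together, kept their direction under the 2 floors, the pseudocount, quantile normalization, averaging and centring, and 204 (averaging) to 316 (floor at 10%) were still past 2-fold. Of the 102 that the naming rule gave, 72 (averaging) to 102 (floor at 10%) were. The floors, the pseudocount and the small shifts of centring could not reverse a 2-fold difference, and a lower floor cannot make one smaller. Only quantile normalization and averaging could have changed a direction. The counts of list members without each array, and those above or below 0 under quantile normalization and centring, were added after seeing the data. No paired analysis was possible because each label has 1 array. Probe sets near the floor have bounds in place of folds, and without replicates or a second control array no difference could be set against the spread between cultures.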

Other observations

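The families below were picked after their values were seen, so their counts are descriptions, to be read beside 2.7% of all genes lower (1.47% of those above the floor on all 4 arrays). Of 18 measured genes of striated muscle membranes, Z-discs and LIM or PDZ scaffolds, 9 were at least 2-fold lower on all 3 transformed arrays, and 0 were higher. Above the floor on all 4 arrays, 2 of 10 were lower, and 5 of the 18 were above it on the non-transformed array only. Jph1, Jph4 and 5 Pdlim genes were among those that did not pass. Jph2, which ties the plasma membrane to calcium stores, had 117 in H-RasV12 and signals under the floor in myr-Akt and in the array labelled c-Myc, against 731 in non-transformed cells. Dmpk, the myotonic dystrophy protein kinase, had signals of 411 in H-RasV12, 611 in myr-Akt and 336 in the array labelled c-Myc, against 1524 in non-transformed cells. Sspn, a partner of dystroglycan, had signals of 1058 in H-RasV12, 295 in myr-Akt and 406 in the array labelled c-Myc, against 2149 in non-transformed cells. Ldb3, Dysf, Lims2 and Sync were under the floor on all 3 transformed arrays.

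Of the small heat shock protein genes, 3 of 6 measured were lower, and 2 of the 5 above the floor on all 4 arrays. Hspb1, the abundant chaperone HSP27, was even across the transformed arrays, with signals of 9848 in H-RasV12, 11067 in myr-Akt and 10674 in the array labelled c-Myc, against 22814 in non-transformed cells. Hspb2, its muscle relative, had signals of 479.5 in H-RasV12, 220.1 in myr-Akt and 327 in the array labelled c-Myc, against 1243 in non-transformed cells. Of 33 measured TRIM genes, 5 were lower (Trim12a, Trim12c, Trim30a, Trim30d and Trim34a), all on chromosome 7. These 5 were under the floor on the 3 transformed arrays and counted as measured through the non-transformed array alone, and 0 of the 23 TRIM genes above the floor on all 4 arrays were lower. Their non-transformed signals were 208 for Trim12a, 303 for Trim12c, 205 for Trim30a, 299 for Trim30d and 315 for Trim34a. Near-identical copies in this cluster may share probe sets. Among 3 measured GABA-A receptor subunit genes, Gabra3 joined Gabrb1, being under the floor on all 3 transformed arrays, at least 5.40-fold lower than 539.8 in non-transformed cells. Of 14 measured hosts of small nucleolar RNAs, 2 were higher, Snhg16 and Snhg7, beside 0.262% of all genes higher.

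Other promoter motifs were counted in the same windows. CACGTG, the E-box that MYC binds, was in 13 of 55 ribosome biogenesis promoters (23.6%), beside 10.6% for measured genes and 7.15% for all promoters, and in 1 of 24 promoters of the higher genes. TTCCCGC, an E2F element, was in 14 of 33 DNA replication promoters (42.4%), beside 8.99% for measured genes and 4.6% for all promoters. Among the lower genes, TGACTCA (AP-1) was in 7.02% of promoters, beside 3.24% for measured genes and 5.2% for all promoters. TATAAA was in 13.2%, above the 6.74% for measured genes and close to the 13.6% for all promoters. Of 2786 probe sets above the floor that name no single gene, 15 were higher and 48 lower on all 3 arrays.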
